A study of Mus musculus with 6 samples.

Results

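The DNA replication and S-phase genes described here are 47 genes whose products license replication origins, unwind and copy DNA, join new strands, supply deoxynucleotides, start S phase or rebuild chromatin behind the fork. They were chosen by name from knowledge of the replication machinery and found by gene symbol in the table of expression values. Earlier results of these data were known when they were chosen, so the list is not independent of the data. All 47 were listed among its 34745 genes, and each was annotated as protein-coding.

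RNA-seq had been carried out on mesenchymal stromal cells grown from the lungs (LMSCs) of MMTV-PyMT mice on the FVB background, in which the mouse mammary tumour virus promoter drives polyoma middle T antigen in mammary epithelium and tumours spread to the lungs. A-LMSCs came from the adenoma stage (labelled age 6 to 7 weeks), PM-LMSCs from the pre-metastatic stage (9 to 10 weeks) and M-LMSCs from the metastatic stage (13 to 14 weeks), with 2 libraries per stage, all at passage 3. Every group carried the transgene and no wild-type library was used here, so the adenoma stage was the reference for tumour progression and not a tumour-free control, and stage went together with the age of the mice. The cells had been freed from lung with collagenase and hyaluronidase, grown as adherent cells in serum-containing DMEM and depleted of CD45-positive cells, so the values describe stromal cells that had divided in culture rather than cells taken directly from the lung. The labels number the libraries of a stage without saying whether they came from separate mice, while the study's text gives them as separate mice, so p-values measure the spread between cultures that include differences between mice. The ages are those of the labels, and the study's text gives older mice for the adenoma and pre-metastatic stages. A further library of each stage, named in the study, was not analysed here.

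Levels are in FPKM, fragments scaled to gene length and to the depth of the library. The spacing of low values put the depth of the A-LMSC libraries at 20840000 and 17500000 fragments, of the PM-LMSC libraries at 14770000 and 15880000, and of the M-LMSC libraries at 16550000 and 16590000 (replicate 1 comes before replicate 2 throughout). At these depths a replication gene was covered by an estimated 26 to 15806 fragments in a library, with a median of 400 over the genes, and 10 of the 47 had under 100 in at least 1 library. Among those 10 were Gins1, Ccne2 and Pola1, whose values are the least precise.

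Replication origins are licensed in G1, when the origin recognition complex with Cdc6 and Cdt1 loads the Mcm2-7 helicase onto DNA. At S-phase entry cyclin E with its kinase and E2F transcription factors promote origin firing and the expression of replication genes, Cdc45 and the GINS complex join the helicase, and DNA polymerases copy both strands with the sliding clamp PCNA. Many of these transcripts are made mainly in late G1 and S phase.

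The label of the cells was compared with marker genes. All 12 of the mesenchymal stromal markers averaged at least 1 FPKM, and their summed FPKM was 2578 and 2507 in A-LMSC, 2109 and 2437 in PM-LMSC and 2326 and 3254 in M-LMSC. The most abundant, Col1a1, was at 1090 and 1100 FPKM in A-LMSC, 761 and 1040 in PM-LMSC and 808 and 1470 in M-LMSC, and the log2 fold changes of the list in M-LMSC against A-LMSC went from -0.17 for Vim to 0.64 for Col3a1. Of the epithelial markers 3 of 12 averaged at least 1 FPKM, led by Krt19, with the list summing to 17.63, 24.3, 18.85, 28.09, 16.51 and 29.33 FPKM in the same order of libraries. Epcam, which marks epithelial cells, was listed at 0 in all A-LMSC and PM-LMSC libraries and at 0.326 and 0.473 FPKM in M-LMSC. Krt19, a keratin, was at 13.8 and 17.3 FPKM in A-LMSC, 8.09 and 9.28 in PM-LMSC and 4.92 and 4.49 in M-LMSC, and fell in M-LMSC against A-LMSC (log2 fold change of -1.53, limma adjusted p = 0.0395), the only gene of the lists used here to pass the test without the block. Krt8 and Krt18, also keratins, passed as higher with the block in M-LMSC (log2 fold changes of 1.42 and 1.21) and in PM-LMSC against A-LMSC. In 8 of the 12 epithelial markers, of which 3 were tested, both M-LMSC libraries lay above both of A-LMSC, as in 2786 of the 10279 genes tested. Endothelial markers summed to between 1.744 and 3.014 FPKM, with 1 of 8, Kdr, averaging at least 1 and passing as higher with the block in M-LMSC against A-LMSC (log2 fold change of 0.61).

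Summed markers of blood cells were highest in both M-LMSC libraries, and those of mesothelial cells were lowest in both A-LMSC libraries. The other stages overlapped in these sums. The summed FPKM of the 12 haematopoietic markers was 130.6 and 122.5 in A-LMSC, 165.5 and 73.58 in PM-LMSC and 399.3 and 285.9 in M-LMSC. Most of it came from Lyz2, a lysozyme of myeloid cells, at 115 and 106 FPKM in A-LMSC, 147 and 60.6 in PM-LMSC and 362 and 250 in M-LMSC, while Ptprc, which encodes CD45, lay between 0.0254 and 0.0987 FPKM. Of these 12 markers 5 averaged at least 1 FPKM, with log2 fold changes in M-LMSC against A-LMSC from 0.37 for Csf1r to 1.5 for Fcer1g; limma called 0, all 5 were higher at an unadjusted p under 0.05 (7.68% of all genes) and 4 passed as higher with the block (2.28% of all genes). The 7 mesothelial markers, of which 6 averaged at least 1 FPKM and Upk1b was the most abundant, summed to 106.3, 160.3, 285.1, 401.3, 191.0 and 485.6 FPKM, with log2 fold changes in M-LMSC against A-LMSC from 0.81 for Krt7 to 1.43 for Upk3b; limma called 0, the unadjusted p was under 0.05 for 4, all higher, and 4 passed as higher with the block, beside the same 7.68% and 2.28% of all genes. The part of other cell types in the values of the replication genes was not tested.

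The replication genes were highest in the A-LMSC libraries and lowest in the M-LMSC libraries. Their summed FPKM was 485.8 and 542.3 in A-LMSC, 436.8 and 438.2 in PM-LMSC and 330.0 and 383.4 in M-LMSC, so the stages did not overlap. Rrm1 alone made up the largest share of these sums, and without it they were 417.0, 464.3, 376.2, 376.9, 264.4 and 313.2 FPKM, in the same order of stages. The median FPKM of the 47 genes was 6.89 and 8.27 in A-LMSC, 5.50 and 6.30 in PM-LMSC and 4.05 and 5.05 in M-LMSC. In such bulk libraries, fewer cells in S phase and less replication RNA per cell cannot be told apart.

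Of the 47 genes 45 averaged at least 1 FPKM over the 6 libraries and were tested. The deviation of each gene from its own mean on the log2(FPKM + 1) scale had a median over these 45 of 0.19 and 0.31 in A-LMSC, -0.00 and 0.02 in PM-LMSC and -0.42 and -0.15 in M-LMSC, while the median over all 10279 genes tested stayed between -0.02 and 0.02 in every library. In A-LMSC 43 and 45 of the 45 lay above their own mean, in PM-LMSC 22 and 28, and in M-LMSC 2 and 7. The lowest value of a gene was in M-LMSC replicate 1 for 35 of the 47 genes and in M-LMSC replicate 2 for 8, and the highest was in A-LMSC replicate 2 for 32. Libraries of a stage also differed from each other: 37 of the 47 were higher in replicate 2 than in replicate 1 of A-LMSC, 23 in PM-LMSC and 37 in M-LMSC, beside 4865, 4656 and 5257 of the 10279 genes tested.

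**Figure D1:**
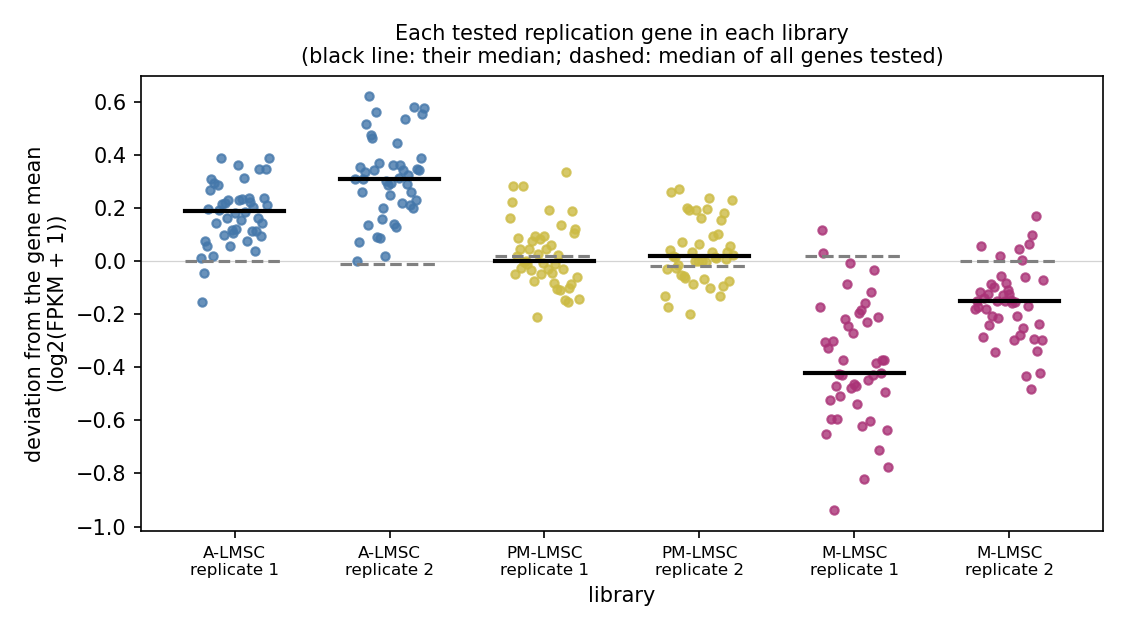
Deviation of each of the 45 tested replication genes from its own mean (log2(FPKM + 1), vertical axis) in each of the 6 libraries (horizontal axis), coloured by stage. Points are genes, black lines their median in the library and dashed lines the median of all genes tested; the gene median goes from 0.31 in A-LMSC replicate 2 to -0.42 in M-LMSC replicate 1, while the dashed lines stay near 0.

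The stages followed one order for many of these genes. In 21 of the 45 tested genes (46.7%) both A-LMSC libraries were higher than both of PM-LMSC and these higher than both of M-LMSC, an order held by 370 of all genes tested (3.6%). The 21 were Cdc6, Gmnn, Mcm2, Mcm3, Mcm5, Mcm6, Mcm7, Mcm10, Cdc45, Pcna, Rfc3, Rfc4, Pola2, Prim2, Pold1, Pole, Fen1, Rpa2, Tk1, E2f1 and Chaf1a. By stage means alone 37 of the 47 genes and 2163 of the 10279 genes tested were ordered in this way. The exceptions among the 47 were Orc2, Orc6, Mcm4, Gins4, Rfc1, Pola1, Rrm1, Rrm2, Tyms and Ccne2.

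M-LMSC against A-LMSC addressed the longest interval of tumour progression, and here the replication genes differed most. Mean FPKM was lower in M-LMSC for 46 of the 47 genes, all but Orc2, beside 4598 of the 10279 genes tested, and the median log2 fold change of the 45 tested was -0.52 beside 0.03 for all genes tested. Both M-LMSC libraries lay below both A-LMSC libraries in 40 of the 45 tested genes, as in 24.4% of all genes tested, and in 42 of all 47; Orc2, Orc6, Cdt1, Rrm1 and Dut overlapped. The largest differences were in Mcm5, Tk1, Uhrf1, Cdc45 and Chaf1b, and those nearest to 0 in Orc2, Orc6, Rrm1, Rfc1 and Gins4. Over the alternatives the log2 fold change went from -1.39 to -0.70 for Mcm5 and from -1.26 to -0.55 for Uhrf1. It went from -1.05 to -0.81 for Cdc45 and from -0.88 to -0.79 for Chaf1a, so the order of the largest depended on the fit.

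With limma and adjustment over all genes, 0 of the 45 passed an adjusted p of 0.05 in M-LMSC against A-LMSC, where 7 of all genes tested did (0.0681%). At an unadjusted p under 0.05, 33 of the 45 (73.3%) were lower and 0 higher, beside 6.96% of all genes tested lower and 7.68% higher. Libraries with the same replicate number deviated together, although the labels do not say that a number joins libraries of different stages. With the number as a block in the fit, 19 of the 45 (42.2%) passed the adjusted threshold as lower and 0 as higher. Over all genes tested, 1.64% passed as lower and 2.28% as higher. These calls rest on a pairing that was read from the same data. The 19 were Gmnn, Mcm2, Mcm3, Mcm5, Mcm7, Cdc45, Gins2, Pola2, Pold1, Fen1, Lig1, Rpa2, Rrm2, Tk1, Ccne1, E2f1, Chaf1a, Chaf1b and Uhrf1. Without M-LMSC replicate 2 the fit without the block called 8 genes lower (0.593% of all genes), namely Mcm3, Mcm5, Mcm7, Cdc45, Pola2, Pold2, Chaf1a and Uhrf1, and without any other single library it called 0. With 1 library left out, the 7 genes called among all those tested became 1 to 90, the highest without M-LMSC replicate 2. The count at an unadjusted p under 0.05 was 19 without A-LMSC replicate 2, 23 without M-LMSC replicate 1 and 29 to 34 without any other library. A correction for GC content and length of the exons, added once the data were known, gave 3 genes, Cdc45, Rrm2 and Chaf1a (0.458% of all genes called in either direction), and 17 genes together with the block (1.32% of all genes called lower), of which 13 were shared with the 19. Mcm2, Gins2, Lig1, Ccne1, E2f1 and Uhrf1, of the 19, were not among the 17. Cdc6, Mcm6, Prim1 and Pole, of the 17, were not among the 19.

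**Figure D2:**
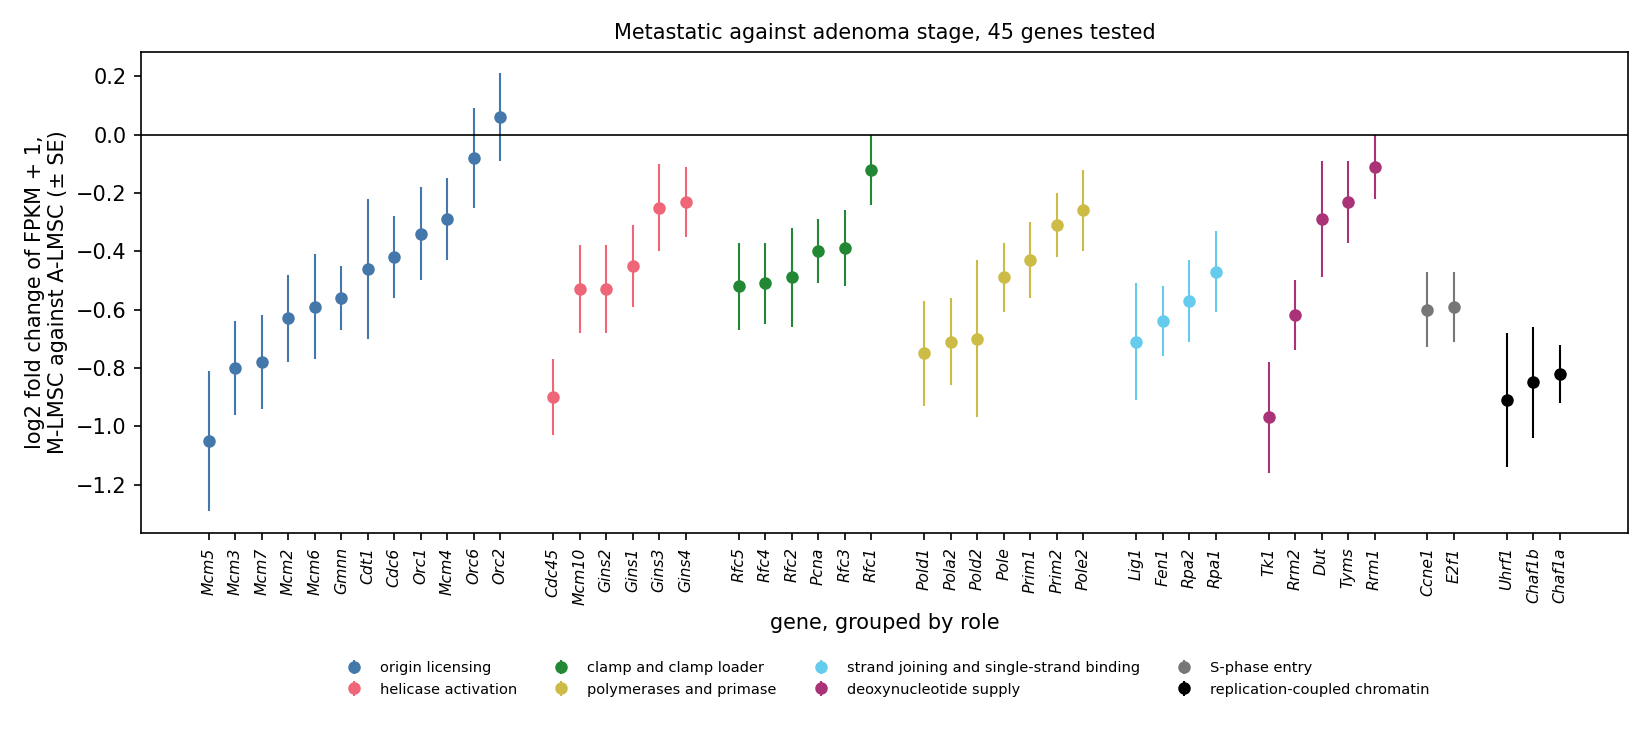
Log2 fold change of FPKM + 1 in M-LMSC against A-LMSC (vertical axis) for the 45 tested genes, grouped and coloured by role (horizontal axis). Points are limma estimates and bars their standard error; all but Orc2 (0.06, and -0.04 with the correction for GC content and length) lie below 0, with Mcm5 lowest at -1.05.

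Of the genes for origin licensing, the 6 subunits of the Mcm2-7 helicase included 4 that passed as lower in M-LMSC with the block (1.64% of all genes), Mcm2, Mcm3, Mcm5 and Mcm7. Mcm5, the most abundant of the 12 licensing genes, was at 25.8 and 32.6 FPKM in A-LMSC, 20.8 and 25.4 in PM-LMSC and 10.4 and 17.5 in M-LMSC. The 3 stages were in order without overlap, and the mean in M-LMSC was 52.2% below that in A-LMSC. Its log2 fold change against A-LMSC was -1.05 (SE 0.24), with a limma adjusted p of 0.142, of 0.0171 with the replicate block and of 0.0171 to 0.711 over the alternatives. Mcm3 was at 14.0 and 16.3 FPKM in A-LMSC, 10.9 and 10.9 in PM-LMSC and 7.02 and 9.69 in M-LMSC, again in order without overlap, with a log2 fold change of -0.80 (SE 0.16; adjusted p 0.118, with the block 0.0250, over the alternatives 0.0250 to 0.692). Mcm7 and Mcm2 followed with log2 fold changes of -0.78 (SE 0.16) and -0.63 (SE 0.15), and Mcm6 with -0.59 (SE 0.18). Mcm4 stood apart, at 11.9 and 13.0 FPKM in A-LMSC, 14.5 and 11.6 in PM-LMSC and 9.35 and 10.7 in M-LMSC. Its PM-LMSC libraries lay on either side of those of A-LMSC, and its log2 fold change in M-LMSC was -0.29 (SE 0.14). The 6 subunits form one complex, whose proportions of protein are not measured by RNA levels. The FPKM of Mcm5 relative to Mcm6 was 2.44 and 2.39 in A-LMSC and 2.19 and 2.78 in PM-LMSC. It was lowest in M-LMSC, at 1.58 and 1.96.

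The origin recognition complex and its loading partners were less uniform. Orc2 was at 3.83 and 4.38 FPKM in A-LMSC, 5.27 and 4.26 in PM-LMSC and 4.83 and 3.84 in M-LMSC, so the stages overlapped, and its M-LMSC to A-LMSC log2 fold change of 0.06 (SE 0.15) changed sign, to -0.04, with the correction for GC content and length. Orc6 overlapped likewise, with 12.0 and 13.1 FPKM in A-LMSC, 15.3 and 10.9 in PM-LMSC and 12.7 and 10.9 in M-LMSC. Orc1, the subunit of this complex that is made in G1, was at 1.81 and 2.45 FPKM in A-LMSC, 2.12 and 1.54 in PM-LMSC and 1.47 and 1.46 in M-LMSC. Its log2 fold change of -0.34 (SE 0.16) in M-LMSC against A-LMSC did not pass (limma adjusted p 0.377, with the block 0.231, over the alternatives 0.138 to 0.968). Cdt1 was at 13.6 and 15.8 FPKM in A-LMSC, 13.2 and 15.8 in PM-LMSC and 7.93 and 13.6 in M-LMSC, where the M-LMSC libraries differed more from each other than the means of the other stages did. Gmnn, whose product geminin binds Cdt1 and keeps origins from being licensed again, was at 4.67 and 5.13 FPKM in A-LMSC, 4.26 and 4.02 in PM-LMSC and 2.94 and 3.06 in M-LMSC. In contrast to Cdt1 it was ordered by stage without overlap, with a log2 fold change of -0.56 (SE 0.11; adjusted p 0.118, with the block 0.0416, over the alternatives 0.0348 to 0.737). Cdc6, which loads the helicase together with Cdt1, was among the lower genes at 1.41 and 1.92 FPKM in A-LMSC, 1.21 and 1.35 in PM-LMSC and 0.848 and 1.11 in M-LMSC.

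Helicase activation was represented by Cdc45, Mcm10 and the 4 GINS subunits. Cdc45 was at 7.30 and 8.38 FPKM in A-LMSC, 5.20 and 5.07 in PM-LMSC and 3.46 and 4.01 in M-LMSC. Replicates lay close together and the stages did not overlap, and the mean was 34.5% below that of A-LMSC in PM-LMSC and 52.4% below it in M-LMSC. The log2 fold change in M-LMSC against A-LMSC was -0.90 (SE 0.13), with a limma adjusted p of 0.0815, of 0.0171 with the block and of 0.0171 to 0.521 over the alternatives. Gins4, the most abundant subunit, was at 22.2 and 22.1 FPKM in A-LMSC, 16.9 and 20.2 in PM-LMSC and 18.5 and 18.9 in M-LMSC, with a log2 fold change of -0.23 (SE 0.12) in M-LMSC. Gins1 was at 2.30 and 2.03 FPKM in A-LMSC, 2.00 and 2.27 in PM-LMSC and 1.11 and 1.56 in M-LMSC, with A-LMSC and PM-LMSC overlapping and both M-LMSC libraries the lowest. The GINS proteins work as a complex of 4 different subunits, whose proportions are not measured by RNA levels. The FPKM of Gins4 relative to Gins1 was 9.68 and 10.9 in A-LMSC and 8.45 and 8.91 in PM-LMSC. In M-LMSC it was 16.8 and 12.2, with an estimated 28 and 39 fragments for Gins1, so it is imprecise there. Gins2 had a log2 fold change of -0.53 (SE 0.15; adjusted p 0.216, with the block 0.0425, over the alternatives 0.0425 to 0.929), and Gins3, at 2.35 and 2.06 FPKM in A-LMSC, 2.08 and 1.51 in PM-LMSC and 1.48 and 1.92 in M-LMSC, of -0.25 (SE 0.15). Mcm10, which links the helicase to polymerase alpha, was at 1.49 and 1.77 FPKM in A-LMSC and at 0.624 and 1.04 in M-LMSC.

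Of the 6 genes of the sliding clamp and its loader, 5 were lower in M-LMSC than in A-LMSC at an unadjusted p under 0.05 (6.96% of all genes) and 0 passed with the block (1.64% of all genes). Pcna, the clamp that holds polymerases on DNA, was at 21.8 and 21.3 FPKM in A-LMSC, 18.8 and 17.3 in PM-LMSC and 15.4 and 16.8 in M-LMSC. The stages did not overlap and the mean in M-LMSC was 25.4% below that in A-LMSC (log2 fold change of -0.40, SE 0.11; limma adjusted p 0.189, with the block 0.0871, over the alternatives 0.0595 to 0.846). Over 781 bases Pcna is 99.2% identical to the pseudogene Pcna-ps2, listed at 19.0 and 20.7 FPKM in A-LMSC, 15.7 and 14.5 in PM-LMSC and 15.1 and 14.3 in M-LMSC, so the split of fragments between both is uncertain. Summed over both, the level was 40.8 and 42.0 FPKM in A-LMSC, 34.5 and 31.8 in PM-LMSC and 30.5 and 31.2 in M-LMSC, again without overlap. Among the subunits of replication factor C, which opens the clamp and places it on DNA, Rfc2, Rfc3, Rfc4 and Rfc5 had log2 fold changes of -0.49, -0.39, -0.51 and -0.52 in M-LMSC against A-LMSC. Rfc1, the largest subunit, differed little, at 2.93 and 2.83 FPKM in A-LMSC, 3.00 and 2.78 in PM-LMSC and 2.76 and 2.40 in M-LMSC (log2 fold change of -0.12, SE 0.12).

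Among polymerases and primase, the catalytic subunit of polymerase delta, which extends the lagging strand, differed most. Pold1 was at 3.62 and 4.35 FPKM in A-LMSC, 2.81 and 3.51 in PM-LMSC and 1.56 and 2.41 in M-LMSC, ordered by stage without overlap, and its mean in M-LMSC was 50.3% below that in A-LMSC. Its log2 fold change was -0.75 (SE 0.18), with a limma adjusted p of 0.149, of 0.0232 with the block and of 0.0232 to 0.753 over the alternatives. Pold2, the accessory subunit and the most abundant of the 8 genes, was at 12.6 and 12.6 FPKM in A-LMSC, 9.35 and 11.9 in PM-LMSC and 5.20 and 10.3 in M-LMSC. Its value in M-LMSC replicate 1 lay far below that in replicate 2, and the log2 fold change of -0.70 (SE 0.27) was -1.13 without replicate 2 and -0.27 without replicate 1 of M-LMSC. Pola2, the regulatory subunit of the polymerase alpha-primase complex that starts new strands, was at 10.6 and 10.6 FPKM in A-LMSC, 7.85 and 8.04 in PM-LMSC and 5.22 and 7.09 in M-LMSC (log2 fold change of -0.71, SE 0.15; adjusted p 0.118, with the block 0.0346, over the alternatives 0.0346 to 0.657).

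The catalytic subunit Pola1 averaged 0.570 FPKM and was not tested, with 0.624 and 0.566 in A-LMSC, 0.934 and 0.541 in PM-LMSC and 0.381 and 0.374 in M-LMSC. Both M-LMSC libraries were the lowest, and PM-LMSC replicate 1 was the highest. The primase subunits Prim1 and Prim2 had log2 fold changes of -0.43 and -0.31 in M-LMSC against A-LMSC. Pole, the catalytic subunit of the leading-strand polymerase epsilon, was at 1.95 and 2.34 FPKM in A-LMSC, 1.58 and 1.42 in PM-LMSC and 1.33 and 1.14 in M-LMSC. Its partner Pole2 differed less, with 4.16 and 4.69 FPKM in A-LMSC, 3.55 and 4.01 in PM-LMSC and 3.17 and 3.91 in M-LMSC (log2 fold change of -0.26, SE 0.14).

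For the joining of Okazaki fragments and the binding of single-stranded DNA, all 4 genes were lower in both M-LMSC libraries than in both A-LMSC libraries (24.4% of all genes), and 3 passed as lower with the block (1.64% of all genes). Lig1, the ligase that seals the fragments, was at 8.49 and 10.8 FPKM in A-LMSC and 6.55 and 7.22 in PM-LMSC. In M-LMSC it was at 4.36 and 6.80 FPKM. Its log2 fold change against A-LMSC went from -0.98 to -0.44 over the alternatives. M-LMSC replicate 2 lay between the PM-LMSC libraries, and the log2 fold change was -0.71 (SE 0.20; limma adjusted p 0.209, with the block 0.0346, over the alternatives 0.0346 to 0.910). Fen1, the nuclease that trims the flaps of these fragments, had a log2 fold change of -0.64 (SE 0.12; adjusted p 0.114, with the block 0.0274, over the alternatives 0.0274 to 0.692). Rpa1, the large subunit of the single-strand binding protein, was the most abundant of the 4 at 29.2 and 33.2 FPKM in A-LMSC, 29.7 and 27.2 in PM-LMSC and 24.8 and 19.7 in M-LMSC. In contrast to most of the genes, it was lower in replicate 2 than in replicate 1 of M-LMSC. Rpa2 had a log2 fold change of -0.57 (SE 0.14; adjusted p 0.151, with the block 0.0382, over the alternatives 0.0382 to 0.828).

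Of the 5 genes of deoxynucleotide supply, Tk1 and Rrm2 were lower in M-LMSC than in A-LMSC at an unadjusted p under 0.05 (6.96% of all genes) and passed with the block (1.64%). Rrm1, Tyms and Dut passed neither. Tk1, the thymidine kinase of S phase, was at 6.89 and 8.27 FPKM in A-LMSC, 4.77 and 6.03 in PM-LMSC and 2.78 and 4.05 in M-LMSC. The stages did not overlap, and its mean in M-LMSC was 54.9% below that in A-LMSC, the largest reduction in percent of the 47 (log2 fold change of -0.97, SE 0.19; limma adjusted p 0.114, with the block 0.0157, over the alternatives 0.0157 to 0.657). Rrm1, the large subunit of ribonucleotide reductase and the most abundant of all 47 genes, was at 68.9 and 78.0 FPKM in A-LMSC, 60.6 and 61.2 in PM-LMSC and 65.6 and 70.2 in M-LMSC. It was the one gene of the 47 with both M-LMSC libraries above both PM-LMSC libraries, and M-LMSC overlapped A-LMSC. Its partner Rrm2, the small subunit whose level is tied to S phase, was at 28.6 and 31.8 FPKM in A-LMSC, 33.5 and 29.5 in PM-LMSC and 20.0 and 18.6 in M-LMSC. Here A-LMSC and PM-LMSC overlapped while M-LMSC lay below both (log2 fold change of -0.62 against A-LMSC, SE 0.12; adjusted p 0.114, with the block 0.0382, over the alternatives 0.0334 to 0.692). The FPKM of Rrm1 relative to Rrm2 was 2.41 and 2.46 in A-LMSC, 1.81 and 2.07 in PM-LMSC and 3.28 and 3.77 in M-LMSC. Tyms, which makes thymidylate, was at 4.60 and 4.75 FPKM in A-LMSC, 3.50 and 3.70 in PM-LMSC and 3.33 and 4.37 in M-LMSC. Dut, which removes dUTP from the pool, overlapped between A-LMSC (14.3 and 15.8 FPKM) and M-LMSC (9.70 and 15.1 FPKM).

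Of the regulators of S-phase entry, E2f1, a transcription factor of replication genes, was at 13.8 and 14.9 FPKM in A-LMSC, 12.5 and 10.9 in PM-LMSC and 8.70 and 9.66 in M-LMSC. It was ordered by stage without overlap, with a log2 fold change of -0.59 (SE 0.12; limma adjusted p 0.118, with the block 0.0459, over the alternatives 0.0459 to 0.713). Ccne1, which encodes a cyclin E, was at 11.4 and 13.3 FPKM in A-LMSC, 11.8 and 10.5 in PM-LMSC and 7.69 and 7.89 in M-LMSC. Only M-LMSC was set apart (log2 fold change of -0.60, SE 0.13; adjusted p 0.118, with the block 0.0459, over the alternatives 0.0459 to 0.750). The second cyclin E gene, Ccne2, averaged 0.705 FPKM and was not tested, at 0.881 and 0.690 in A-LMSC, 1.18 and 0.590 in PM-LMSC and 0.443 and 0.441 in M-LMSC.

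All 3 genes of replication-coupled chromatin passed as lower with the block (1.64% of all genes). Uhrf1 no longer passed when the correction for GC content and length was added to it. Of the 8854 exon bases of Chaf1a, 4648 overlap Ubxn6 on the other strand. Chaf1a, the large subunit of chromatin assembly factor 1, which deposits histones on new DNA, was at 17.6 and 18.1 FPKM in A-LMSC, 14.9 and 14.2 in PM-LMSC and 9.39 and 9.91 in M-LMSC. Its replicates were close and its stages did not overlap, and the log2 fold change of -0.82 (SE 0.10) had the lowest limma adjusted p of the 45 genes, 0.0720, which was 0.0171 with the block and 0.0171 to 0.507 over the alternatives. Its partner Chaf1b was at 4.14 and 5.53 FPKM in A-LMSC, 3.26 and 4.21 in PM-LMSC and 1.86 and 2.62 in M-LMSC (log2 fold change of -0.85, SE 0.19; adjusted p 0.132, with the block 0.0171, over the alternatives 0.0171 to 0.713). Uhrf1, which brings the maintenance DNA methyltransferase to newly copied DNA, was at 11.9 and 13.7 FPKM in A-LMSC and 7.92 and 9.02 in PM-LMSC. In M-LMSC it was at 4.76 and 8.37 FPKM. Its log2 fold change against A-LMSC went from -1.26 to -0.55 over the alternatives. M-LMSC replicate 2 was between the PM-LMSC libraries, and the log2 fold change was -0.91 (SE 0.23; adjusted p 0.161, with the block 0.0288, over the alternatives 0.0288 to 0.753). Chaf1a and Uhrf1 lie 231 kb apart on chromosome 17, at chr17:56040439-56072289 and chr17:56303321-56323486 of GRCm38, the closest pair among the 47 genes, which are spread over 15 chromosomes.

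**Figure D3:**
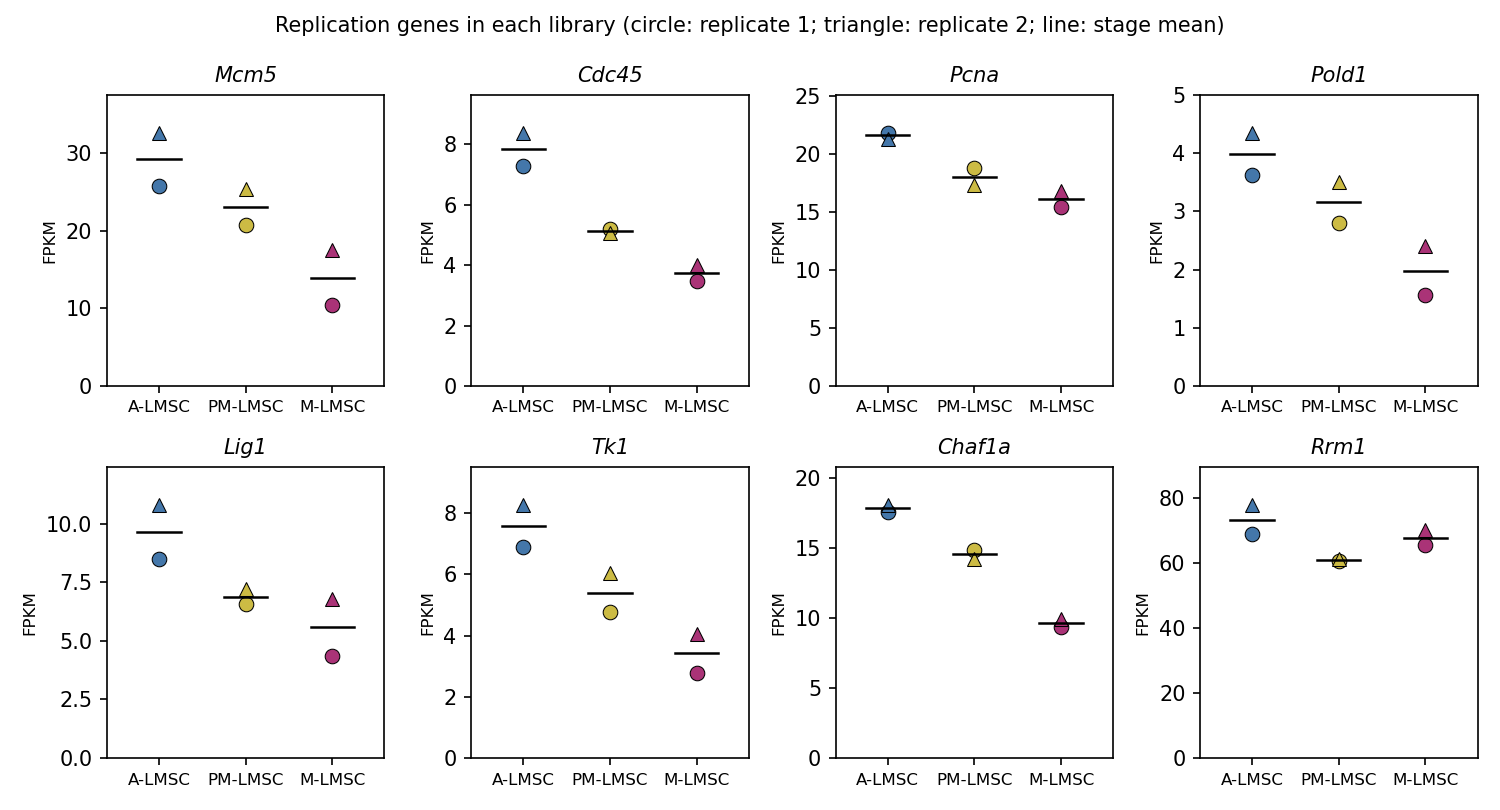
FPKM (vertical axis, from 0) of 8 replication genes at the 3 stages (horizontal axis), with replicate 1 as a circle, replicate 2 as a triangle and the stage mean as a line. Cdc45 and Chaf1a are ordered from A-LMSC (means of 7.84 and 17.9) to M-LMSC (3.73 and 9.65) with little spread, while Rrm1 in M-LMSC (mean of 67.9) overlaps A-LMSC (73.4).

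By role, the median log2 fold change in M-LMSC against A-LMSC was -0.51 for the 12 licensing genes, -0.49 for the 6 of helicase activation, -0.45 for the 6 of the clamp and its loader and -0.49 for the 7 tested polymerase and primase genes. It was -0.60 for the 4 of strand joining and single-strand binding, -0.29 for the 5 of deoxynucleotide supply, -0.59 for the 2 tested genes of S-phase entry and -0.85 for the 3 of chromatin. Differences between roles were not tested. Compared within replicate 1 the FPKM in M-LMSC was below that in A-LMSC for 45 of the 47 genes, and within replicate 2 for all 47, beside 4833 and 4842 of the 10279 genes tested.

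In PM-LMSC against A-LMSC, the interval before metastases appear, the replication genes were lower by a smaller margin. Mean FPKM was lower in PM-LMSC for 40 of the 47 genes, beside 4796 of the 10279 genes tested, with a median log2 fold change of -0.23 beside 0.01. Both PM-LMSC libraries lay below both A-LMSC libraries in 29 of the 45 tested genes (19.7% of all genes tested), and in 0 of the 47 did both lie above (2018 of the 10279 genes tested). The largest differences were in Uhrf1 with a log2 fold change of -0.54 (SE 0.23), Cdc45 with -0.53 (SE 0.13), Mcm3 with -0.44 (SE 0.16), Lig1 with -0.43 (SE 0.20) and Tk1 with -0.42 (SE 0.19). At the other end were Orc2 with 0.17 (SE 0.15), Rrm2 with 0.06 (SE 0.12) and Orc6 with 0.04 (SE 0.17), Mcm4 with 0.05 (-0.11 with the correction for GC content and length) and Rfc1 with 0.00 (-0.03 when each library was centred on its median and -0.04 with quantile normalization).

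In this comparison limma called 0 of the 45 at an adjusted p of 0.05, where 4 of all genes tested were called (0.0389%), and the lowest adjusted p was 0.444, for Cdc45. With 1 library left out the 4 became 1 to 28, the highest without M-LMSC replicate 1. At an unadjusted p under 0.05 there were 5 of 45 (11.1%) lower, namely Mcm3, Cdc45, Pola2, Pole and Chaf1a, and 0 higher, beside 2.61% of all genes lower and 3.92% higher. That count was 0 without A-LMSC replicate 2, 2 without A-LMSC replicate 1 or either PM-LMSC library, and 11 without either M-LMSC library. The replicate block gave 0 of 45 in either direction (0.0292% of all genes lower and 0.263% higher), with a lowest adjusted p of 0.118. Within replicate 1, 37 of the 47 genes were lower in PM-LMSC, and within replicate 2, 45, beside 4703 and 5043 of the 10279 genes tested. An adjusted p above the threshold does not show that the levels were alike, and an exact permutation test of 2 libraries against 2 cannot go below a two-sided p of 0.333.

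In M-LMSC against PM-LMSC the genes were lower again on average. Mean FPKM was lower in M-LMSC for 44 of the 47 genes, all but Gins4, Rrm1 and Tyms, beside 5161 of the 10279 genes tested. The median log2 fold change of the 45 was -0.34 beside -0.00 for all genes tested, and -0.20 without M-LMSC replicate 1. Both M-LMSC libraries lay below both PM-LMSC libraries in 33 of the 45 tested genes (16.7% of all genes tested). Mcm5 had the largest log2 fold change, -0.73 (SE 0.24), before Rrm2 with -0.68 (SE 0.12). Over the alternatives Mcm5 went from -1.07 to -0.38 and Rrm2 from -0.77 to -0.59, so their order depended on the fit. Chaf1b with -0.55 (SE 0.19), Chaf1a with -0.55 (SE 0.10) and Tk1 with -0.54 (SE 0.19) followed. At the other end were Rrm1 with 0.15 (SE 0.11), Tyms with 0.07 (SE 0.14), Gins4 with 0.02 (SE 0.12; -0.00 when libraries were centred on their median), Gins3 with -0.05 (SE 0.15) and Pole2 with -0.08 (SE 0.14).

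Here too limma called 0 of the 45, where 3 of all genes tested were called (0.0292%), and Rrm2 had the lowest adjusted p of 0.192, which was 0.0663 with the block and 0.0663 to 0.498 over the alternatives. With 1 library left out the 3 became 2 to 25, the highest without M-LMSC replicate 2. At an unadjusted p under 0.05, 19 of the 45 (42.2%) were lower and 0 higher, beside 4.46% of all genes tested lower and 461 of the 10279 higher. That count was 28 without M-LMSC replicate 2, 4 without M-LMSC replicate 1, 7 without PM-LMSC replicate 2, 10 without PM-LMSC replicate 1 and 12 without either A-LMSC library. The replicate block gave 0 of 45 (0.146% of all genes lower). The PM-LMSC libraries, like those of A-LMSC and M-LMSC, each serve in 2 of the 3 comparisons, so the values of one comparison are not independent of those of another.

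Base composition went together with the size of the difference. Across the 45 tested genes the log2 fold change in M-LMSC against A-LMSC had a correlation of r = -0.55 with the GC content of the exons, and across 10257 genes tested with a known GC content one of -0.27. The difference between the M-LMSC replicates correlated with GC content as well, at 0.42 across those genes and 0.56 across the 45. Genes are not independent replicates, and these values describe the libraries. With the correction for GC content and length the median log2 fold change of the 45 was -0.54, close to the -0.52 without it. The correlation with gene length was -0.10 and with the mean level -0.12, and the median GC content of the 47 genes was 50.6% beside 51.3% for all genes tested.

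Some of the 47 genes have close copies or neighbours in the GENCODE M21 annotation whose fragments could have been assigned to them. A copy elsewhere in the genome of at least 200 bases at 95% identity was found for 7 genes, Cdc6, Mcm7, Pcna, Rfc5, Rrm2, Tyms and Uhrf1, and their levels are uncertain to that extent. Exons of 15 genes overlapped a gene on the other strand and those of 3 a gene on the same strand. The longest antisense overlaps were those of Chaf1a with Ubxn6 (4648 of its 8854 exon bases) and Gins2 with Gse1 (2758 of 4097). Fen1 followed, with Gm10143 and Tmem258 (2039 of 2422). Chaf1a, Gins2 and Fen1 were all among the genes that passed as lower with the block in M-LMSC against A-LMSC. Whether counting used the strand is not given in the sources used here, so fragments of these genes and their antisense neighbours cannot be told apart.

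The promoters of the replication genes were searched for short motifs. RefSeq promoter sequences of GRCm38.p6, from 250 bases before to 50 after the start, were matched to 38 of the 47 genes; Mcm4, Gmnn, Gins1, Gins2, Gins4, Rfc2, Prim2, Pole and Ccne2 were not matched. Letters of an E2F motif (TTTCCCGC, TTTCGCGC, TTTGCCGC or TTTGGCGC, on either strand) were in the promoters of 14 of the 38 genes (36.8%) and of 2.6% of all 27025 genes with a promoter. By promoter, 31.1% of the 45 promoters of these genes and 2.26% of all 32851 held them. A CCAAT box (CCAAT) was in 60.5% of the 38 genes beside 41.1% of all, a GC box (GGGCGG) in 76.3% beside 38.2%, and a CHR element (TTTGAA or TTCGAA) in 18.4% beside 21.7%, each on either strand. The 14 genes with E2F letters were Orc1, Cdc6, Cdt1, Mcm3, Mcm5, Mcm6, Mcm7, Gins3, Rfc3, Pola1, Pold1, Pole2, Lig1 and Uhrf1.

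Genes with and without these letters overlapped in how much they differed. The median log2 fold change in M-LMSC against A-LMSC was -0.59 for the 13 tested genes with a match (from -1.05 to -0.25) and -0.55 for the 24 tested genes with a promoter and no match (from -0.97 to 0.06). A match describes the letters of the sequence and is not evidence that a factor binds there.

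Genes to show were chosen after the matches were seen. The stretches around the E2F letters are shown for Mcm5, which had the largest difference, and its partner Mcm6, which had matches at separate places. Stretches are also shown for Cdc6, another licensing gene, and for Uhrf1 and Pola1, genes of other steps. Each is written 5′ to 3′ on the strand of its gene with the matching letters in capitals; where the capitals hold 12 letters, matches on opposite strands overlap. The Mcm5 stretch is chr8:75109330-75109393 on the plus strand, those of Mcm6 are chr1:128359778-128359841 and chr1:128359719-128359778 on the minus strand, and that of Pola1 is chrX:93632260-93632319 on the minus strand, and none of these overlaps a gene annotated in GENCODE M21. The Cdc6 stretch is chr11:98907987-98908046 and the Uhrf1 stretch chr17:56304102-56304161, both on the plus strand, inside the annotated span of their own gene and outside its exons.
Mcm5: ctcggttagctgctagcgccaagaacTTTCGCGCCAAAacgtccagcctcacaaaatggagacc
Mcm6 first stretch: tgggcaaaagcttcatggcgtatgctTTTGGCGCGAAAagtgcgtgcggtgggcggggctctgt
Mcm6 second stretch: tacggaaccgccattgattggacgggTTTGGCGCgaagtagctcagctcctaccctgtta
Cdc6: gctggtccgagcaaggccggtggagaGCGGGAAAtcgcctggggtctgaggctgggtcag
Uhrf1: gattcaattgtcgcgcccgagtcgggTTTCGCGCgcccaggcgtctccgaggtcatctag
Pola1: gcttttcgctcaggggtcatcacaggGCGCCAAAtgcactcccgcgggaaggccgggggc

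Lists of related genes outside the 47 were counted in the same fits. Over all genes tested in M-LMSC against A-LMSC, 6.96% were lower and 7.68% higher at an unadjusted p under 0.05, and 1.64% passed as lower and 2.28% as higher with the block. Of 31 other replication factors 24 were tested, with a median log2 fold change of -0.18 in M-LMSC against A-LMSC; limma called 0, while at an unadjusted p under 0.05 there were 5 lower and 0 higher. With the block 2 of the 24 passed as lower, the helicase Recql4, at 2.56 and 3.09 FPKM in A-LMSC, 1.76 and 1.97 in PM-LMSC and 0.832 and 1.32 in M-LMSC, and the clamp loader subunit Chtf18, at 3.34 and 3.73 FPKM in A-LMSC, 2.90 and 2.89 in PM-LMSC and 1.36 and 1.84 in M-LMSC. Pold4, a small subunit of polymerase delta and the most abundant of the list, was at 75.1 and 70.1 FPKM in A-LMSC, 68.0 and 81.8 in PM-LMSC and 66.4 and 71.9 in M-LMSC, with overlapping stages. The highest log2 fold changes were those of Orc4 in PM-LMSC against A-LMSC (0.26) and of Orc5 in M-LMSC against A-LMSC (0.21) and PM-LMSC (0.18), both origin recognition subunits like Orc2.

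Of 8 other enzymes of deoxynucleotide metabolism limma called 0, and in M-LMSC against A-LMSC 2 were lower and 0 higher at an unadjusted p under 0.05 (6.96% and 7.68% of all genes). With the block 1 passed as lower against both other stages, Dctpp1, a hydrolase of modified dCTP, at 20.2 and 25.4 FPKM in A-LMSC, 22.1 and 27.1 in PM-LMSC and 11.5 and 16.7 in M-LMSC. Nt5c was the most abundant (log2 fold change of -0.03 in M-LMSC against A-LMSC). Rrm2b, a second small subunit of ribonucleotide reductase, had the highest log2 fold change in M-LMSC (0.13) and PM-LMSC (0.34) against A-LMSC, Shmt1 the lowest in PM-LMSC (-0.18) and Samhd1 the highest in M-LMSC against PM-LMSC (0.07).

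Of 23 genes of E2F, RB and cyclin-dependent kinase control 20 were tested and limma called 0; in M-LMSC against A-LMSC 7 were lower and 1 higher at an unadjusted p under 0.05, beside 6.96% and 7.68% of all genes, with a median log2 fold change of -0.29. With the block Ccna2 (-0.66), the cyclin of S phase and G2, and Fbxo5 (-0.59) passed as lower and Ccnd2 (0.59) as higher. Ccnd2, a D-type cyclin that acts in G1, was at 39.9 and 35.1 FPKM in A-LMSC, 68.3 and 60.9 in PM-LMSC and 57.5 and 56.1 in M-LMSC, with every later library above A-LMSC, and it also passed with the block in PM-LMSC against A-LMSC (log2 fold change of 0.77). The most abundant, Ccnd1, was at 77.5 and 83.2 FPKM in A-LMSC, 78.0 and 69.7 in PM-LMSC and 72.4 and 50.2 in M-LMSC. E2f8 had the lowest log2 fold change in PM-LMSC against A-LMSC (-0.31), and Ccnd3 the lowest (-0.50) and Rbl2 the highest (0.22) in M-LMSC against PM-LMSC.

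Of 19 genes of the replication checkpoint and fork repair only 8 averaged at least 1 FPKM, and limma called 0, with 3 lower and 0 higher at an unadjusted p under 0.05 in M-LMSC against A-LMSC (6.96% and 7.68% of all genes) and 0 with the block. Atrip had the highest log2 fold change of that list in M-LMSC (0.08) and PM-LMSC (0.50) against A-LMSC. The most abundant, Rad9a, was at 19.5 and 21.9 FPKM in A-LMSC, 18.3 and 18.4 in PM-LMSC and 12.7 and 16.1 in M-LMSC. Of 10 histone chaperone and maintenance methylation genes limma called 0, and 4 were lower and 0 higher at an unadjusted p under 0.05 in M-LMSC against A-LMSC, beside the same shares of all genes. With the block 1 passed as lower, Asf1b, which hands histones to chromatin assembly factor 1, at 8.89 and 10.2 FPKM in A-LMSC, 6.26 and 7.28 in PM-LMSC and 4.0 and 5.49 in M-LMSC. Ssrp1, the most abundant of them, had a log2 fold change of -0.39, and the highest was that of Supt16 (0.00); in M-LMSC against PM-LMSC Hells was lowest (-0.48) and Slbp highest (0.02).

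Of 19 tested mitotic genes limma called 0, but in M-LMSC against A-LMSC 18 were lower and 0 higher at an unadjusted p under 0.05 (6.96% and 7.68% of all genes) and 10 passed as lower with the block (1.64% of all genes). Their median log2 fold change was -0.67, from -1.05 for Plk1 to -0.38 for Ttk. Cdc20, the most abundant of them, was at 48.7 and 55.2 FPKM in A-LMSC, 35.9 and 41.9 in PM-LMSC and 21.0 and 31.3 in M-LMSC. Among 6 tested inhibitors of cyclin-dependent kinases limma called 0, while in M-LMSC against A-LMSC 4 were higher and 1 lower at an unadjusted p under 0.05 (7.68% and 6.96% of all genes), and with the block Cdkn1b (0.68) and Cdkn2b (0.87) passed as higher and Cdkn2d (-0.56) as lower (2.28% and 1.64% of all genes). Cdkn1a, the most abundant of these, was at 170 and 160 FPKM in A-LMSC, 189 and 215 in PM-LMSC and 201 and 213 in M-LMSC, with both later stages above A-LMSC. Its part in the levels of the replication genes was not tested.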

How the data were processed

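The authors deposited FPKM values, fragments scaled to gene length and library depth, for 34745 genes in 6 libraries, and no counts, so no count model was used. The submitters' processing notes name TopHat2 2.0.9 and mm10 without a role; the counter is not given in the sources used here. Columns were matched to libraries through the descriptions in the labels. The titles in the labels number the replicates and name the groups E, L and M, taken here as adenoma, pre-metastatic and metastatic. Depth was estimated in genes with 1 annotated transcript, from the spacing of FPKM times exon length in kilobases where this product was under 0.4. Of these products, 95.8% to 96.4% were whole multiples of 1 fragment within 0.05. The 10279 genes averaging 1 FPKM or more were fitted as log2(FPKM + 1) with limma 3.58.1 in R 4.3.3 (1 mean per stage over all 6 libraries, eBayes with trend), with Benjamini-Hochberg adjustment across these genes and a threshold of 0.05. Fold changes on this scale understate those of low genes. Data were simulated for M-LMSC against A-LMSC over 10279 genes, with independent noise and without an effect of replicate or GC content. There limma recovered 63 of 100 genes changed by 1 log2 unit and 94 of 100 changed by 2, with 3 false calls. With the block it recovered 47 and 86 of 100, with 3 false calls. Changes under 1 log2 unit, such as the median of -0.52 of the 45 replication genes, were not simulated. The counts therefore do not give the recovery or false calls to be had in the real libraries.

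Deviations from the stage mean of same-numbered libraries correlated at 0.238 (A-LMSC and PM-LMSC), 0.307 (A-LMSC and M-LMSC) and 0.491 (PM-LMSC and M-LMSC) over 10279 genes. All were above 0.1, so the replicate numbers of the labels were taken to pair libraries. The labels name no batch or day shared between stages, so this pairing rests on the same data as the calls. Results with the number as a block are given beside those without it. Alternatives were a pseudocount of 0.1, no filter on low values (21698 genes), quantile normalization, median centring, a fit to 2 stages at a time, the replicate block and the omission of each library; a lowess correction (span 0.3) for GC content and exon length in 10257 genes, alone and with the block, was chosen after seeing the data. The genes to be given with every value were the most abundant of each role, those past the threshold and those under the filter. The 5 with the largest and the 5 with the smallest log2 fold change in each comparison were also to be given in full. Of the genes past the threshold with the block, Mcm2, Mcm7, Gins2, Fen1 and Rpa2 were not given in full. Of each other list, its most abundant gene, its largest rise and fall in a comparison and any gene past the threshold were to be named. Some genes of these lists are not reported here. The choice of other genes named or given in full was made with their values known. The 47 genes and the other lists were chosen with earlier results of these data known. Positions are from GENCODE M21 (GRCm38), copies from blastn 2.17.0 (at least 200 bases at 95% identity), and promoter sequences from RefSeq. Scripts ran in Python 3.11.15 (pandas 2.3.3, numpy 2.4.6).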

Additional observations from a re-analysis of the deposited data

How the results depend on the processing

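The direction of the 45 genes as a group held under every alternative tried, with a median log2 fold change from -0.29 to -0.16 in PM-LMSC against A-LMSC, from -0.65 to -0.39 in M-LMSC against A-LMSC and from -0.45 to -0.20 in M-LMSC against PM-LMSC. The -0.65 came from a pseudocount of 0.1, and leaving out 1 library gave -0.62 to -0.39 in M-LMSC against A-LMSC and -0.45 to -0.20 in M-LMSC against PM-LMSC. Calls depended on the fit. With 1 library omitted at a time, the lone library of its stage being assumed to vary like the others, 0 to 8 of the 45 were called in M-LMSC against A-LMSC, and the correction for GC content and length gave 3, or 17 with the block. The number of all genes called in PM-LMSC against A-LMSC, 4, was 1 without the filter on low values, 21 with only the libraries compared and 1 to 28 with 1 library left out. In M-LMSC against A-LMSC the 7 became 3 without the filter, 1 with only the libraries compared, 1 to 90 with 1 library left out, 47 with the GC and length correction and 308 with that correction and the block. In M-LMSC against PM-LMSC the 3 became 2 to 25 with 1 library left out, 5 with the correction, which moved the share of higher calls from 66.7% to 80.0%, and 10 with the correction and the block. The cause of these shifts was not tested.

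The replicate block as a paired analysis raised the genes called from 4 to 30, from 7 to 403 and from 3 to 43 in the 3 comparisons, and the replication genes called from 0 to 19 in M-LMSC against A-LMSC; for the replication genes it changed no other call.

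Log2 fold changes near 0 changed sign. In PM-LMSC against A-LMSC, Mcm4 was at -0.11 with the GC and length correction, with or without the block, and Rfc1 at -0.04 with both and with quantile normalization and at -0.03 with median centring. With 1 library left out in that comparison, Orc1 ranged from -0.29 to 0.00, Orc6 from -0.18 to 0.27, Cdt1 from -0.15 to 0.10, Mcm4 from -0.10 to 0.20, Gins1 from -0.07 to 0.05, Rfc1 from -0.04 to 0.04, Prim1 from -0.25 to 0.01 and Rrm2 from -0.03 to 0.15. In M-LMSC against A-LMSC, Orc2 was at -0.04 with the GC and length correction, with or without the block, and with 1 library left out Orc2 ranged from -0.08 to 0.19, Orc6 from -0.18 to 0.02 and Dut from -0.58 to 0.00. In M-LMSC against PM-LMSC, Gins4 was at -0.00 with median centring, and with 1 library left out Orc2 ranged from -0.25 to 0.02, Orc6 from -0.35 to 0.10, Gins3 from -0.19 to 0.10, Gins4 from -0.11 to 0.14, Pole2 from -0.19 to 0.04, Tyms from -0.09 to 0.22 and Dut from -0.38 to 0.20. The cause was not tested. Depth limits the genes with few fragments, such as Gins1, Ccne2 and Pola1, and 2 libraries per stage limit every test.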
